A study of Mus musculus with 6 samples.

Results

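The 10 genes described here are guanylate-binding protein (Gbp) genes of the mouse: Gbp2, Gbp3, Gbp4, Gbp5, Gbp6, Gbp7, Gbp8, Gbp9, Gbp10 and Gm43302, the last an annotated readthrough of the Gbp6 and Gbp10 genes. They are 10 of the 55357 genes measured. They were chosen by name as a family whose difference between the groups below was already known from these same cultures, so that their difference is given as a description without a p-value. RNA was sequenced from astrocytes cultured from the cortex of C57BL/6 mouse embryos. In 3 cultures the cells had been transfected for 48 hours with a plasmid in which the CMV promoter drives FLAG-tagged BRAF carrying the K499E substitution (KE). The other 3 cultures received no plasmid (NT). None of the cultures analysed here received an empty plasmid or BRAF WT, so that the effects of transfection and of BRAF KE cannot be told apart. The labels do not say whether the cultures of a group came from separate preparations, and the errors and p-values measure the spread between these samples only.

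Guanylate-binding proteins are large GTPases related to dynamin that cells make in quantity after exposure to interferons. They assemble on the membrane of vacuoles that hold intracellular parasites or bacteria, and on the bacteria themselves, and help to open them and to start inflammasome signalling. Interferons act through JAK kinases and STAT transcription factors on 2 kinds of promoter element, the interferon-stimulated response element (ISRE), which is bound by complexes that contain IRF9 or by IRF1, and the gamma-activated site (GAS), which is bound by STAT dimers. In the brain, astrocytes and microglia both respond to interferons.

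The values are normalized counts, that is, gene counts divided by a size factor for each culture, and log2FC is the difference between the KE and NT means of log2(normalized count + 1), with its standard error (SE). Depth was approximately 24500000 to 34100000 reads per culture, with KE replicate 2 the least deep. Braf, the transfected gene, was 34933 to 40978 in KE and 811 to 946 in NT, a log2FC of 5.37. The astrocyte markers Gfap, Aldh1l1 and Slc1a3 were abundant in all 6 cultures, and the 10 astrocyte markers listed summed to 194523 to 200354 in KE and 142105 to 150693 in NT. Of these markers 7 were higher in KE, 1 was lower (Gja1, log2FC -0.46) and 2 were not called, with a median log2FC of 0.4. S100b, another of them, was low, between 11.8 and 31.5 in the 6 cultures. The cultures also held RNA of microglia. The 25 microglia markers listed summed to 7817 to 11005 in KE and 69815 to 87540 in NT, and only Siglech was listed at 0 in all 6 cultures. Each of the 24 tested microglia markers was lower in KE, with a median log2FC of -3.32 and the largest falls in Fcrls (-4.12), Itgam (-4.07), Adgre1 (-4.01) and Cx3cr1 (-3.97), and fewer microglia and less RNA per microglial cell cannot be told apart in bulk RNA. RNA of the oligodendrocyte lineage was also present, and its 7 tested markers summed to 27105 to 31874 in KE and 35920 to 36217 in NT. All 7 were lower in KE as well, with a median log2FC of -0.55 and the largest fall in Mbp (-1.89). Of the neuron markers tested, 2 were higher and 2 lower, of the endothelial markers 2 of 3 were lower, and of the mesenchymal markers 2 were higher and 1 lower. Over all tested genes 25.3% were called higher and 26.0% lower in KE, which is the background for each of these marker counts. The higher mesenchymal genes, Col1a2 (log2FC 0.37) and Lum (0.39), lost their calls without KE replicate 3 and in limma without the variance trend. Col1a2 also lost its call without KE replicate 1. Pecam1, one of the lower endothelial markers, lost its call without the filter on low genes.

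The Gbp genes lie in 2 loci of the mouse genome (GRCm39, GENCODE vM39). Gbp5, Gbp7, Gbp3 and Gbp2 lie in that order on the plus strand of chromosome 3, in a stretch of 175.4 kb from 142199739 to 142375144 that also holds Gbp2b and the pseudogene Gbp2-ps. Gbp8, Gbp9, Gbp4, Gbp10, Gm43302 and Gbp6 lie on the minus strand of chromosome 5, in a stretch of 332.3 kb from 105162016 to 105494338 that also holds Gbp11. No other protein-coding gene starts inside either stretch.

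Promoter sequence from the RefSeq table (GRCm38.p6) was matched by symbol for Gbp2, Gbp3, Gbp5 and Gbp7, the 4 members on chromosome 3. Gbp4, Gbp6, Gbp8, Gbp9, Gbp10 and Gm43302 had no entry. The sequences are shown because these genes were high together in KE and are known targets of interferon. Each is the 250 bases before the RefSeq start, 5′ to 3′ on the plus strand, and was placed on GRCm39 by an exact match that occurs once. Gbp5 is chr3:142202445-142202694, Gbp7 is chr3:142235847-142236096, Gbp3 is chr3:142265555-142265804 and Gbp2 is chr3:142326174-142326423. In all 4 genes the outermost GENCODE start lies before the RefSeq start, so that some GENCODE transcripts begin inside or before the window. Capitals mark matches to the ISRE, searched as GAAA, any 2 bases and GAAA on both strands, and to the GAS, searched as TTCNNNGAA, which reads alike on both strands.

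Gbp5: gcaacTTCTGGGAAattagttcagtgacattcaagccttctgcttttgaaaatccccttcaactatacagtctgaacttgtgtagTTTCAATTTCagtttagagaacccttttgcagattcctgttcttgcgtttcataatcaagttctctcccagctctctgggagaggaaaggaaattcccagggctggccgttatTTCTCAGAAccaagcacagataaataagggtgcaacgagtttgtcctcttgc
Gbp7: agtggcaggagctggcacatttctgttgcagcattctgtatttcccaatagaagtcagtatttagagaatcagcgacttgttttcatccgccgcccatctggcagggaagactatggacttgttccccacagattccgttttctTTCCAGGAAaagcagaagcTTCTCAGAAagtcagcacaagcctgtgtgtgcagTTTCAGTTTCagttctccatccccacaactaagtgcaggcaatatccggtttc
Gbp3: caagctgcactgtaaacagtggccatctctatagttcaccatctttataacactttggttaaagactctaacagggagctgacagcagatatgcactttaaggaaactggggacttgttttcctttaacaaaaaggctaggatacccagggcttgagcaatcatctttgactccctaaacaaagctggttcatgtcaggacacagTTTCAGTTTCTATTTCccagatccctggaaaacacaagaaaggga
Gbp2: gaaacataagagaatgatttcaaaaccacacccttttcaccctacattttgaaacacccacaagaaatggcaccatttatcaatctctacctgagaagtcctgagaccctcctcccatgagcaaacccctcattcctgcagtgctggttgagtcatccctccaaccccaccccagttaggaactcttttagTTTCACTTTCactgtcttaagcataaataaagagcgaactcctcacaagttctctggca

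All 4 windows held the ISRE letters, in each case on the strand opposite to the gene, as TTTC, 2 bases and TTTC. The match began 59 bases before the start in Gbp2, 53 in Gbp7 and 165 in Gbp5. In Gbp3 a pair of overlapping matches began 45 and 39 bases before the start, and a second RefSeq start of Gbp3, at chr3:142265867-142266116, had no ISRE or GAS match in its 250 bases. Of all 32851 promoter windows in the RefSeq table, 2.98% held the ISRE letters before the start. GAS matches were found 245 and 52 bases before the start of Gbp5 and 106 and 87 bases before that of Gbp7, against 7.02% of all windows. The AP-1 letters, searched as TGANTCA, which Jun and Fos proteins bind, were found once, 102 bases before the start of Gbp2, against 6.75% of all windows. Gbp2b, which is not a member, also held the ISRE letters, 137 bases before its start. A match of letters is a description of the sequence and does not show that a factor binds there.

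Among the chromosome 3 genes, Gbp2 (ENSMUSG00000028270, 142326349 to 142343779) encodes a prenylated protein that coats the vacuole of Toxoplasma gondii. Gbp2 was measured at normalized counts of 18738, 18026 and 19867 in KE and of 2986, 3147 and 2082 in NT. Its group means were 18877 ± 928 and 2738 ± 574 (SD, n = 3 each), a ratio of 6.89 and a log2FC of 2.81 (SE 0.126). The KE cultures lay close together, well above each NT culture, and NT replicate 3 was the lowest.

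Gbp5 (ENSMUSG00000105504, 142199739 to 142228105) encodes a further prenylated member, known for its part in inflammasome activation. It was 7109, 6911 and 7416 in KE and 1237, 1580 and 934 in NT. The means were 7145 ± 255 and 1250 ± 323, a ratio of 5.72 and a log2FC of 2.55 (SE 0.144). Again the groups did not overlap and NT replicate 3 was the lowest.

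Gbp3 (ENSMUSG00000028268, 142265731 to 142278979) was 14661, 14686 and 15044 in KE and 3713, 3872 and 2440 in NT. The means were 14797 ± 214 and 3341 ± 785, a ratio of 4.43 and a log2FC of 2.18 (SE 0.138). The KE values of Gbp3 had the smallest spread of the family, with a coefficient of variation (CV) of 1.45%. Gbp7 (ENSMUSG00000040253, 142236044 to 142255910), whose product has been linked to oxidant and autophagic defence against bacteria, was 6640, 6542 and 6795 in KE and 1927, 1757 and 1345 in NT. The means were 6659 ± 128 and 1676 ± 299, a ratio of 3.97 and a log2FC of 2.01 (SE 0.108), the lowest of the 4 chromosome 3 members. The 4 log2FC values spanned 2.01 to 2.81, with a median of 2.37.

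The chromosome 5 members differed more among themselves, from 1.46 to 5.62 with a median log2FC of 3.24 (n = 6). Gbp6 (ENSMUSG00000104713, 105418568 to 105443751) had the highest normalized counts of the family. It was 41901, 40522 and 45414 in KE and 7536, 7738 and 4535 in NT. The means were 42612 ± 2522 and 6603 ± 1794, a ratio of 6.45 and a log2FC of 2.73 (SE 0.163). Gbp6 alone gave 38.4% of the family's counts in KE and 36.4% in NT.

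Gbp9 (ENSMUSG00000029298, 105224332 to 105287452) was 10095, 9786 and 10986 in KE and 2153, 2114 and 1484 in NT. Its means were 10289 ± 623 and 1917 ± 376, a ratio of 5.37 and a log2FC of 2.44 (SE 0.121). The size of the difference was therefore close to that of Gbp5 and Gbp6. Gbp4 (ENSMUSG00000079363, 105263633 to 105287609) was 3029, 3128 and 3067 in KE but 254, 269 and 176 in NT. The means of Gbp4 were 3075 ± 49.9 and 233 ± 49.8, a ratio of 13.2 and a log2FC of 3.74 (SE 0.134).

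Gbp8 (ENSMUSG00000034438, 105162016 to 105287452) was the least abundant member, at 61.9, 78.5 and 63.6 in KE and 30.1, 16.4 and 27.8 in NT. The means of Gbp8 were 68.0 ± 9.15 and 24.8 ± 7.31, a ratio of 2.75 and a log2FC of 1.46 (SE 0.267). It had the smallest difference of the family, and the lowest KE culture was 2.06 times the highest NT culture. The NT order also differed, with NT replicate 2 the lowest.

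Gbp10 (ENSMUSG00000105096, 105362773 to 105412666) was 3925, 3794 and 4045 in KE and 214, 178 and 26.1 in NT. Its means were 3921 ± 126 and 139 ± 99.7, a ratio of 28.2 and a log2FC of 5.27 (SE 0.585). NT replicate 3 stood far below the others, and without it the log2FC of Gbp10 was 4.32. Gm43302 (ENSMUSG00000079362, 105362773 to 105441561) was 3320, 3658 and 3128 in KE and 38.6, 92.2 and 84.8 in NT. The means were 3369 ± 268 and 71.9 ± 29.1, a ratio of 46.9 and a log2FC of 5.62 (SE 0.255), the largest of the family with all 6 cultures. With 1 culture left out, Gm43302 ranged from 5.23 to 5.85 and Gbp10 from 4.32 to 5.82, so that their order is uncertain. For Gm43302 the lowest NT culture was replicate 1, and NT replicate 3 was not low.

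**Figure D1:**
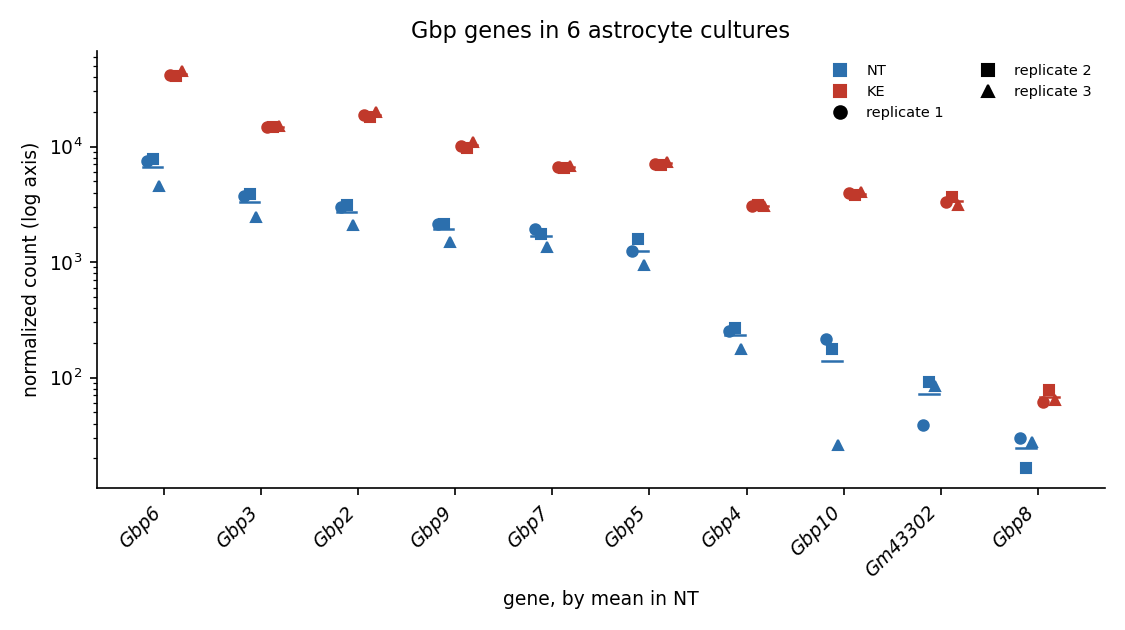
Normalized counts (log axis) of the 10 Gbp genes in each of the 3 KE and 3 NT cultures, ordered by the NT mean; symbols mark the replicate number and short lines the group means. KE lies above NT in every gene, from Gbp6, at 40522 to 45414 in KE, to Gbp8, at 61.9 to 78.5, and NT replicate 3 of Gbp10 lies at 26.1.

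In all 10 members the lowest KE culture lay above the highest NT culture. Among the 15280 tested genes 30.1% had that order, and in the limma comparison with Benjamini-Hochberg adjustment 25.3% of tested genes were called higher and 26.0% lower in KE. These shares are the background of the selection and the members' count is not a result, since the members were selected on this contrast. The shares of 25.3% and 26.0% are also the background for the counts of called genes in every list. The members' median log2FC was 2.64, where the median of all tested genes was 0.002 and their 99th percentile 2.21. Ranked by log2FC among the 15280 genes, the members ran from rank 8 (Gm43302) and 11 (Gbp10) to 207 (Gbp7) and 377 (Gbp8). Summed over the family, the normalized counts were 109479, 107131 and 115825 in KE and 20089, 20763 and 13135 in NT. The mean sums were 110812 ± 4497 and 17996 ± 4223, a ratio of 6.16, or 0.361% of all normalized counts in KE and 0.0589% in NT. The chromosome 3 members summed to a ratio of 5.27 and the chromosome 5 members to one of 7.05.

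The make-up of the family was not the same in the 2 groups. Gbp3 took 13.4% ± 0.361 of the family's counts in KE and 18.6% ± 0.0829 in NT (SD, n = 3 each). Gbp7 took 6.01% ± 0.128 in KE and 9.43% ± 0.900 in NT. Gbp4 had the opposite order, with 2.78% ± 0.136 in KE and 1.30% ± 0.0390 in NT. Gbp10 and Gm43302 took 3.54% and 3.05% in KE but 0.707% and 0.427% in NT. These shares follow from the same contrast that chose the genes and are given without a test.

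Levels of different genes were compared per kilobase of exon. In KE the mean levels per kilobase were 7371 for Gbp2, 6274 for Gbp6, 3483 for Gbp3, 1112 for Gbp7, 1064 for Gbp9, 980 for Gbp5, 782 for Gm43302, 668 for Gbp10, 317 for Gbp4 and 15.1 for Gbp8. The ranges of the 3 KE cultures overlapped between the neighbours Gbp7 and Gbp9 and between Gbp9 and Gbp5. Overlap of ranges ignores that the genes were measured in the same cultures, so that it does not show equal levels. The top 6 places were the same in NT, from 1069 for Gbp2 and 972 for Gbp6 to 171 for Gbp5. Below them Gbp4 came before Gbp10 and Gm43302 in NT, at 24.1, 23.7 and 16.7 per kilobase, and Gbp8 was last in NT at 5.50. In NT the ranges overlapped between Gbp2 and Gbp6, Gbp6 and Gbp3, Gbp9 and Gbp5, Gbp4 and Gbp10, and Gbp10 and Gm43302. Length itself is uncertain for genes with many transcripts. With the longest transcript in place of the exon union, 6 of the 10 members kept their KE place and Gbp6 came before Gbp2, at 8702 per kilobase.

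How well a read can be given to 1 Gbp gene varied across the family, as annotated in GENCODE vM39. Of the 31-base words in the annotated transcripts, over 95% were found in no other gene for Gbp2 (95.5%), Gbp3 (95.6%) and Gbp5 (95.5%). The shares were 86.5% for Gbp7, 88.7% for Gbp9, 86.8% for Gbp4 and 75.1% for Gbp8. For Gbp6 the share was 33.6% and for Gbp10 25.1%, and Gm43302 had no such word at all. The single Gm43302 transcript of 4310 bases shares 2584 exon bases (60.0%) with Gbp10 and the remaining 1726 (40.0%) with Gbp6, so that all of it lies in exons of those genes. The Gbp6 and Gbp10 transcripts are themselves alike, and 67.8% of the words of Gbp10 occur in Gbp6. Gbp4, Gbp8 and Gbp9 share a stretch of 107 exon bases.

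**Figure D2:**
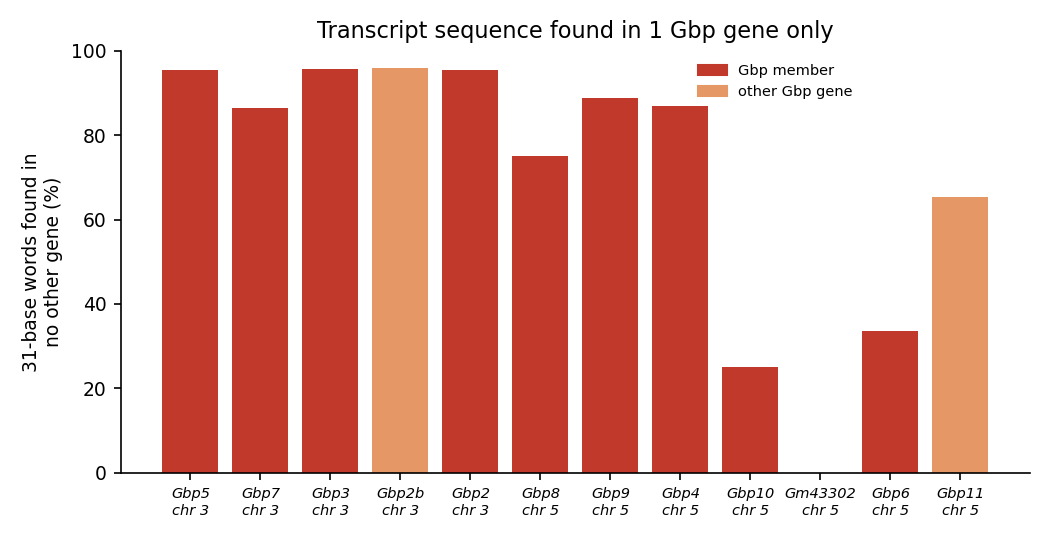
Share of the 31-base words of each Gbp gene's annotated transcripts that occur in no other gene, in genome order, for members and for Gbp2b and Gbp11. Gbp10 (25.1%), Gm43302 (0.0%) and Gbp6 (33.6%) are the lowest, and Gbp11 (65.3%) and Gbp8 (75.1%) come next.

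The division of reads among Gbp6, Gbp10 and Gm43302 therefore rests on the estimate made by the counting program. In NT, Gbp10 was highest in replicate 1, where Gm43302 was lowest, and Gbp10 was lowest in replicate 3, where Gm43302 was 84.8. Summed, Gbp10 and Gm43302 were 7245, 7452 and 7173 in KE and 252, 270 and 111 in NT, a ratio of 34.5 and a log2FC of 5.21 (SE 0.411). The SE of single genes comes from limma, which draws on all tested genes, while this SE uses the spread of the sum alone. They are therefore not alike. The CV of this sum in NT was 41.3%, against 71.5% for Gbp10 and 40.4% for Gm43302. With Gbp6 added, the sum was 49902 ± 2398 in KE and 6814 ± 1881 in NT, a ratio of 7.32. Gbp6 makes up most of this sum in both groups, so that its ratio says little about Gbp10 and Gm43302.

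The other Gbp genes of the table were looked at in the same way. Gbp11 (ENSMUSG00000092021, 105470908 to 105494338), at the end of the chromosome 5 locus, was 519, 516 and 538 in KE and 19.8, 16.6 and 10.5 in NT. Gbp11 had a log2FC of 5.03 (SE 0.214), given without a p-value since the family was chosen on this contrast. Of its words, 65.3% were found in no other gene. Gbp2b, by contrast, was at most 0.91 in the KE cultures and at most 1.91 in the NT cultures, so that it was hardly detected in either group although it lies between Gbp3 and Gbp2. The pseudogene Gbp2-ps was 0.90 in a single KE culture and listed at 0 in the others. Gbp2b and Gbp2-ps fell under the mean of 10 needed for the test.

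The genes beside the loci were looked at as well. Of the 5 protein-coding genes on each side of each locus, 20 in all, 15 were tested. Of these 3 were higher in KE, 3 were lower and 9 were not called, with a median log2FC of 0.05. The higher genes were Pdlim5 (log2FC 0.24), Lmo4 (0.25) and Pkd2 (0.33), and the lower genes were Bmpr1b (-0.48), Hs2st1 (-0.32) and Lrrc8b (-0.45). Lrrc8b, a subunit of volume-regulated anion channels, lies 69.2 kb from the chromosome 5 locus. The nearest tested neighbour, Kyat3, 31.6 kb from the chromosome 3 locus, had a log2FC of 0.12 (adjusted p = 0.52, limma). The members were chosen on this contrast and the neighbours were not. The larger log2FC of the members is therefore a description and no test of a difference from their neighbours.

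**Figure D3:**
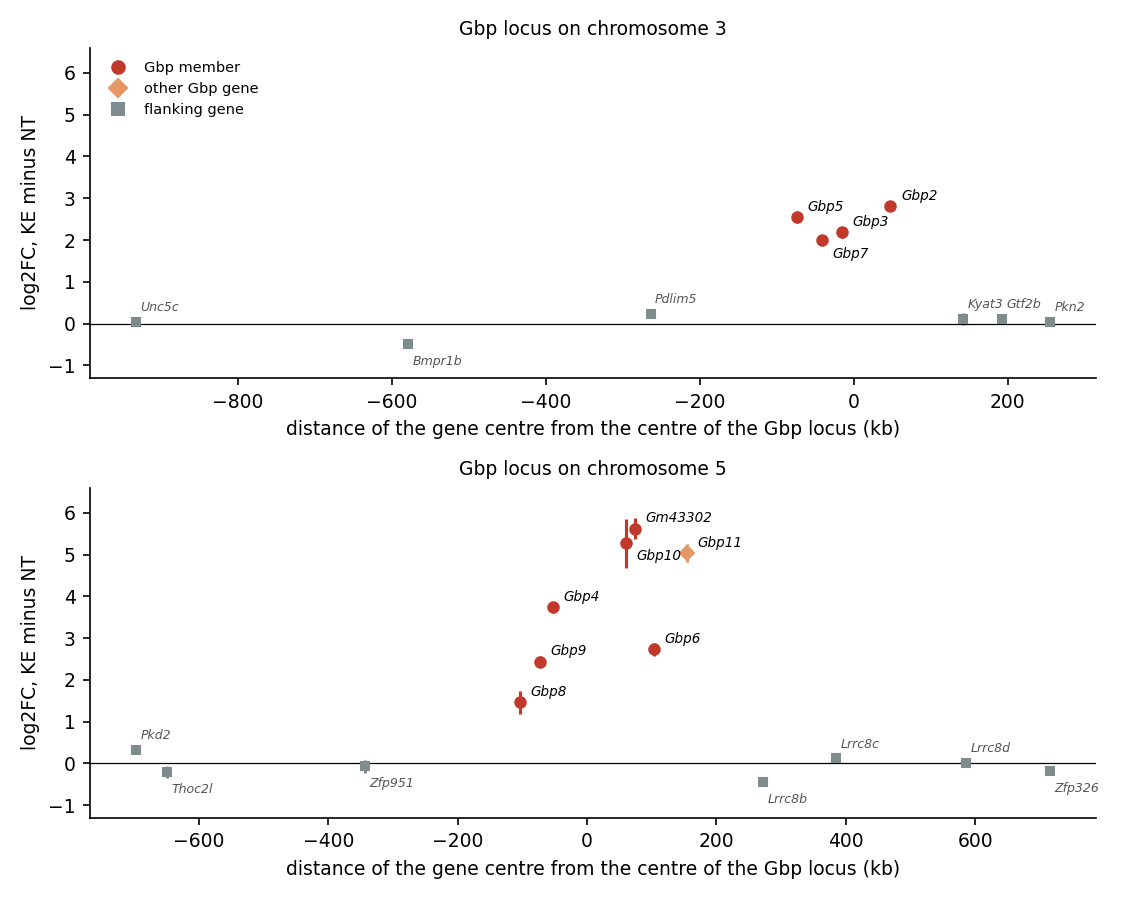
Log2FC of KE minus NT (points, with SE as bars) against the distance in kb of each gene's centre from the centre of its Gbp locus, for members, Gbp11 and tested flanking genes within 700 kb. Members lie between 1.46 and 5.62, while the flanking genes shown lie between -0.48 and 0.33.

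The spread between cultures of a group was uneven. Over the members, the CV was 1.45% to 13.5% in KE (median 4.24%) and 17.8% to 71.5% in NT (median 24.7%). Much of the NT spread was a difference of NT replicate 3 from the other NT cultures. NT replicate 3 was the lowest NT culture in 8 of the 10 members, against 32.0% of all tested genes, and the exceptions were Gbp8 and Gm43302. The members' median log2 difference of NT replicate 3 from the mean of NT replicates 1 and 2 was -0.56, where that of all tested genes was 0.01. The same culture was also the lowest NT culture in 22 of 24 microglia markers, with a median difference of -0.26, and in 1 of 10 astrocyte markers, with one of 0.09. The lists described below shared this in part. It was the lowest in 14 of 20 genes of the IRG and ATG8 list (median difference -0.26) and in 11 of 20 genes of the interferon list (-0.09). The part of microglial RNA in the NT values of the Gbp genes was not tested. Between the groups the Gbp genes and the microglia markers went opposite ways. Without NT replicate 3, the members' median log2FC was 2.42.

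**Figure D4:**
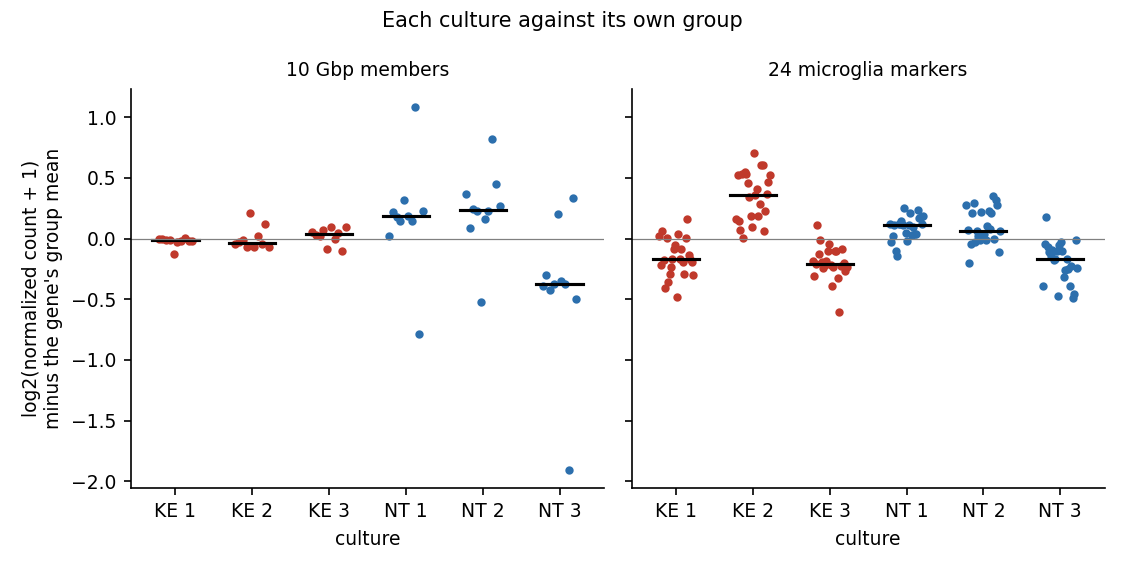
Log2(normalized count + 1) minus the gene's mean in its own group, for the 10 Gbp members and the 24 tested microglia markers in each culture; black lines are medians. NT replicate 3 lies below the other NT cultures in 8 of 10 members and in 22 of 24 microglia markers.

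Genes of interferon signalling, which acts upstream of the Gbp genes, were compared with its inhibitors Socs1 and Socs3 and with the cytokine genes Tnf and Il1b. Of these 21 listed genes 20 were tested, and 12 were higher in KE, 6 were lower and 2 were not called, with a median log2FC of 0.23. Ifnb1, which encodes interferon beta, was 233, 198 and 235 in KE and listed at 0 in all 3 NT cultures. Ifna4, an interferon alpha gene, was 90.8, 74.1 and 73.5 in KE and also listed at 0 in NT, whereas Ifng, which encodes interferon gamma, was listed at 0 in all 6 cultures. Ifnb1 and Ifna4 passed the filter on the mean only through KE. They are counted among the 12 higher genes and in the median log2FC. Since the filter let them in only through KE, their part in both is no result, and no log2FC or p-value is given for them. Among the transcription factors, Irf1 rose with a log2FC of 1.33 (adjusted p = 1.7e-07, limma), and Stat2 (1.68) and Irf9 (0.87) rose as well. The receptor genes moved little, with Ifnar2 at 0.51, Ifnar1 at -0.27, Ifngr1 at -0.30 and Ifngr2 not called at -0.09. Of the inhibitors, Socs1 was called higher (1.31) and Socs3 lower (-0.5). The genes with the largest decreases were Tnf (log2FC -3.60), Irf8 (-2.78) and Il1b (-2.37), which microglia are known to express. Of the T and natural killer cell markers, sources of interferon gamma, 7 of 8 were listed at 0 in all 6 cultures, and Klrb1c was between 2.37 and 5.98.

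The immunity-related GTPases (IRG) work beside the Gbp proteins at parasite vacuoles, and the ATG8 conjugation proteins direct both to them. Of 20 listed genes, made up of these families with Ube2l6 and Rnf213, which act in ubiquitin-like conjugation, 18 were higher in KE, none was lower and 2 were not called, with a median log2FC of 1.24. Every listed IRG rose, and Irgm1 (2.43, adjusted p = 3.3e-08), Iigp1 (3.88), Ifi47 (4.13) and Irgb10, listed as Gm12250 (4.10), lay within the range of the Gbp genes. Tgtp1 and Tgtp2 had the largest log2FC of the list, at 5.83 and 5.95, and are known as near-identical copies, so that their separate values are uncertain. Rises in the conjugation genes were smaller, between 0.18 for Gabarapl2 and 0.75 for Gabarapl1, and Atg5 was not called (-0.02, adjusted p = 0.86). Ube2l6 and Rnf213 rose by 2.17 and 1.74.

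Gbp proteins feed into the caspase-11 and AIM2 inflammasomes, and the genes of this route were compared. Of 12 listed genes 11 were tested, and 4 were higher in KE, 4 lower and 3 not called, with a median log2FC of -0.15. Over all tested genes 25.3% were called higher and 26.0% lower, so that these counts alone say little about the route. Casp4, which encodes caspase-11, rose with a log2FC of 1.38 (adjusted p = 2.4e-07), as did Casp1 (1.05), Il18 (0.75) and the nucleic acid sensor Zbp1 (2.59). Aim2 (-2.76, adjusted p = 3.3e-06), Nlrp3 (-3.66), Il1b (-2.37) and the adaptor Pycard (-1.87) fell. The 24 tested microglia markers were lower too, with a median log2FC of -3.32, and their part in these falls was not tested. Gsdmd, the pore-forming substrate of caspase-11, had a log2FC of -0.48 that was not called (adjusted p = 0.06). NT replicate 3 was the lowest NT culture in 10 of these 11 genes, and without it 6 genes were called lower, Gsdmd among them with a log2FC of -0.71.

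Enzymes that attach and process the lipid anchor of CaaX proteins, a group to which Gbp2 and Gbp5 belong, differed little. Of 9 tested genes 2 were higher, 1 was lower and 6 were not called, with a median log2FC of 0.05. Fnta, the subunit common to both kinds of prenyl transferase, had a log2FC of 0.02 (adjusted p = 0.78) and its partner Pggt1b one of -0.04 (adjusted p = 0.77). Fdps, which makes farnesyl diphosphate, fell (log2FC -0.71). The calls of the higher genes, Ggps1 (0.28) and Pde6d (0.22), depended on single cultures, with 1 gene called higher without KE replicate 1, KE replicate 3 or NT replicate 3 and none without NT replicate 2.

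Relatives of the Gbp genes in the dynamin superfamily were compared last. Of 17 genes 6 were higher, 5 were lower and 6 were not called, with a median log2FC of 0.07. Without KE replicate 3 the number lower was 3. The large rises were those of the interferon-induced Mx genes, Mx1 at 4.25 and Mx2 at 4.64, while Dnm1, the neuronal dynamin, had a log2FC of 0.78. Gvin1, a very large interferon-inducible GTPase, fell (log2FC -0.93). The atlastin Atl3, whose GTPase domain is related to that of the Gbp proteins, was not called (0.08, adjusted p = 0.25).

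**Figure D5:**
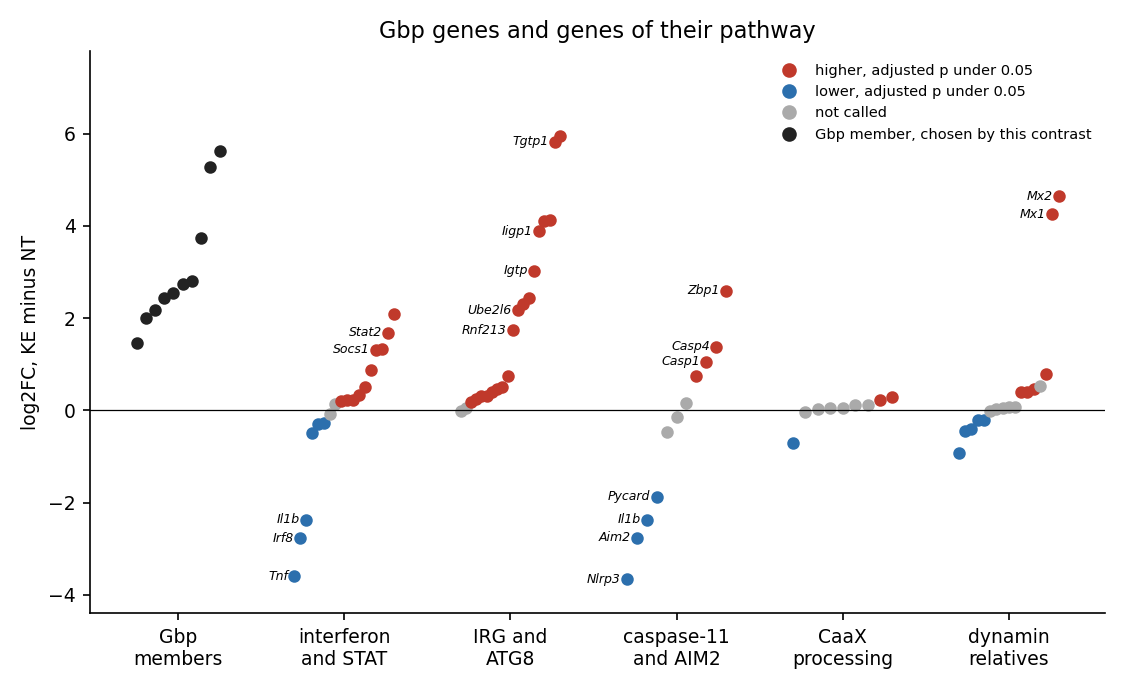
Log2FC of KE minus NT for the 10 Gbp members and for the tested genes of 5 related lists, coloured by the limma call; Ifnb1 and Ifna4, listed at 0 in NT, are not drawn. Mx1, Mx2 and the IRG genes other than Tgtp1 (5.83) and Tgtp2 (5.95) lie in the range of the members, and most CaaX and dynamin genes lie near 0.

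Over the 6 cultures, the tested genes whose centred log2 profile was closest to the median profile of the members were Vnn1, Phf11b, Gm4951, Zbp1 and Slc7a3. Likeness was the root mean square difference of the profiles, which was 0.070 for Vnn1, 0.085 for Phf11b and Gm4951, 0.101 for Zbp1 and 0.102 for Slc7a3. Vnn1, a pantetheinase gene, was 219, 182 and 217 in KE and 35.8, 35.5 and 23.6 in NT, so that it shared the low value of NT replicate 3. Gm4951 was the most abundant of the 5, at 3668, 3552 and 4079 in KE and 621, 586 and 428 in NT. This order over 6 cultures reflects mainly the size of the KE difference and the NT replicate 3 value.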

How the data were processed

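mRNA of 3 BRAF KE–transfected and 3 nontransfected astrocyte cultures was prepared with a stranded kit. Per the labels and the supplemental methods, the authors used Trim Galore, STAR, Salmon and DESeq2, and the methods name GRCm39 with a GENCODE annotation, although the labels' build list gives GRCh38. The authors deposited a normalized signal per gene, that is, Salmon counts divided by DESeq2 size factors, which removes depth and presumes that most genes do not change. Salmon divides reads among similar transcripts. Only 75.3% to 77.7% of values under 20 were whole multiples of a read's worth, to a tolerance of 0.1, so whole reads were not recovered and no count model was used. Batches mentioned in the methods are not named and were not modelled.

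Log2(value + 1) was fitted with limma 3.58.1 (R 4.3.3, variance trend, group as the only factor) in the 15280 genes with a mean of at least 10. Tests were two-sided with Benjamini-Hochberg adjustment over all of them and a threshold of 0.05. The fit was tested on simulated data. Shared sequence was found as exact 31-base words of GENCODE vM39 transcripts, and exon lengths came from the same annotation. The methods name an earlier GENCODE version, so that the transcripts Salmon used may differ from these. Of the 55357 genes measured, 54749 were found in vM39. Members and lists were chosen with earlier results of these data known. The text names every member, the other Gbp genes, the largest called changes of each pathway list and of the microglia list, and a few fixed pathway genes; of the other marker lists only some genes are named. Ifnar1, Ifnar2, Ifngr1, Ifngr2, Pycard, Casp1, Il18, Ube2l6, Rnf213, Gabarapl1, Gabarapl2, Ggps1, Pde6d, Stat2 and Irf9 were added after their values were seen. So were Socs1, Socs3, Gja1, Col1a2 and Lum. The value of 1 fixed pathway gene is not reported here. Alternatives were other pseudocounts, filters and scalings, no trend, the replicate block and leaving out each culture.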

Additional observations from a re-analysis of the deposited data

How the results depend on the processing

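Each member stayed higher in KE and within the spread between its cultures in all 139 recomputed member values, and the members' median log2FC ranged from 2.42 to 2.80, the same range as with 1 culture left out. Gbp10 ranged from 4.32 to 5.82 and Gm43302 from 5.23 to 5.85. Genes with overlapping exons, summed (chosen after seeing the data), gave a median log2FC of 2.6. Planned grouping by near-identical proteins and protein features were not run, since no protein table was used here. The replicate block gave 8046 calls against 7844, with 7669 in both, and called Gsdmd (-0.48) and Zfp326 (-0.18) lower in addition. Same-numbered cultures correlated at 0.059, 0.066 and 0.065, under the 0.1 needed for pairing, although every culture correlated best with its own number. Of the pathway, flanking and microglia list counts, 2 moved by over 1.5 times. CaaX higher was 1 without the trend and 0 to 2 with 1 culture left out. Dynamin lower was 3 without the trend and 3 to 5 with 1 culture left out. Counts of the other marker lists were not recomputed, but Col1a2 and Lum lost their calls without the trend and without KE replicate 3. Col1a2 also lost its call without KE replicate 1, and Pecam1 without the filter on low genes. In the order per kilobase, 6 of 10 places were kept with the longest transcript. Genes near 0 changed sign. Quantile normalization gave 0.01 for Atg5 and 0.07 for Zfp951. Leaving out 1 culture gave -0.06 to 0.05 for Atg5, -0.13 to 0.03 for Zfp951, -0.02 to 0.06 for Fnta, -0.02 to 0.07 for Lrrc8d, -0.11 to 0.08 for Pggt1b, -0.02 to 0.13 for Pkn2, 0.0 to 0.08 for Unc5c and -0.06 to 0.24 for Kyat3. The cause of these changes was not tested. Among single genes, 18 values lost and 3 gained a call. The lowest group means among the members were those of Gbp8 and, in NT, of Gm43302 and Gbp10, and the effect of depth on them was not tested.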
